A study of Mus musculus with 10 samples.

Results

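The claudins Cldn1, Cldn3, Cldn4, Cldn7 and Cldn8, occludin (Ocln), the junctional adhesion molecule F11r (JAM-A) and the scaffold proteins Tjp1 (ZO-1) and Tjp3 (ZO-3) build the tight junctions of epithelial cells. Their 9 genes were found by gene name among the non-control probes of an Agilent mouse array, where they have 12 probes of the 40196 in the normalized table, and all 12 were measured in all 10 tumors of the series. Cldn1, Ocln and Tjp1 have 2 probes each and the other genes 1. The study compared 5 tumors that it groups as metastatic sarcomatoid carcinomas with 5 mammary adenocarcinomas, 1 array per tumor, to find genes that go with metastasis. The labels call 323 and 307, at both sites, sarcomatoid adenocarcinoma, and 594 sarcomatoid carcinoma. Of the sarcomatoid tumors, 3 grew in the mammary gland (tumors 323, 307 and 594) and 2 are lung tumors numbered 323 and 307, labelled as transplanted. Adenocarcinomas 105, 131, 470, 17 and 85 all grew in the mammary gland. Per the study's methods, the mice in which the tumors arose carried MMTV-Cre, in which a mouse mammary tumor virus promoter drives Cre recombinase in mammary epithelium, and those with both a Pik3ca and a Trp53 allele had a C57BL/6 background. The sarcomatoid group holds a primary tumor with Pik3ca H1047R and Trp53 R270H, a Pik3ca H1047R primary tumor with a spontaneous Trp53 R245H mutation, a Trp53 R270H primary tumor, and the lung tumors grown from cell lines of the former 2 after tail vein injection. The adenocarcinomas carry Pik3ca H1047R and Trp53 R270H. The labels do not tie the sarcomatoid genotypes to tumor numbers and give no ages. The lung tumors share their origin with mammary tumors 323 and 307, so the 5 sarcomatoid tumors have 3 origins. By this pairing tumor 594, which has no lung tumor, would be the Trp53 R270H primary tumor without Pik3ca H1047R. Which Trp53 allele 323 and 307 each carry is not given. The mammary sarcomatoid group thus mixes genotypes and histology labels, and the part of these in its values was not tested. Each lung tumor is 1 cell line in 1 sample, so that culture, transplantation and site cannot be told apart.

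Tight junctions are belts near the apical end of neighbouring epithelial cells that close the space between them. Claudins are small proteins with 4 membrane passes whose extracellular loops meet between cells and set which ions and solutes pass. Occludin and its relatives shape the strands, JAM-A is an immunoglobulin-type adhesion protein that helps set up polarity, and the ZO proteins lie under the membrane and link the strands to actin. In the mammary gland these proteins are found in the luminal epithelium, and their loss together with E-cadherin is a textbook part of the epithelial-mesenchymal transition (EMT).

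Each value is the log2 of tumor over reference signal, so that a difference of 1 between groups is a 2-fold change. The labels name Cy3 (green) as the dye of the tumor RNA, but green varied less between arrays than red (mean SD over arrays of the log2 signal 0.737 against 0.975), and every column of the normalized table correlated best with red over green of its own array (r from 0.805 to 0.955, and at most 0.761 with another array). Red was therefore read as the tumor and green as a common reference. That direction is likely, because the study's text also places Krt18, Epcam and Dsp lower and Zeb2, Loxl2 and Plau higher in its metastatic tumors, but every sign below would turn if the dye label were right. Between 53.5% and 84.9% of probes per array were well above background in red. Tumor 470 stood apart from its label. Its mean correlation across probes was 0.660 with the sarcomatoid tumors and 0.494 with the other adenocarcinomas, and its closest array was sarcomatoid tumor 594 (r = 0.772). Comparisons with adenocarcinoma are therefore given with and without it. Nothing but the tumor numbers says which tumors came from separate animals, so p-values measure the spread between these samples. The tumors are bulk tissue, in which fewer epithelial cells and less RNA per cell cannot be told apart.

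Cldn3, a sealing claudin of glandular epithelium (mm7 chr5:133958589-133958648), separated the lung tumors from all mammary sarcomatoid tumors. Its log2 ratios were 5.04, 4.88, 5.08 and 4.76 in adenocarcinomas 105, 131, 17 and 85 and 1.49 in tumor 470. They were 4.21, 4.73 and 4.02 in mammary sarcomatoid tumors 323, 307 and 594, and 0.65 and -0.21 in lung tumors 323 and 307. The mammary sarcomatoid tumors thus lay above tumor 470 and below the other adenocarcinomas, and the lung tumors lay below every mammary tumor. The reference channel of this probe did not stay level: its log2 signal ranged over 2.90 between arrays and moved with the tumor channel (r = 0.93 over 10 arrays), and the part of this in the ratios was not tested.

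Cldn7, a claudin of basolateral and tight junction membranes (mm7 chr11:70048852-70049161, a span of 310 bases where most of the other probes span 60), gave the widest range among probes that were well above background in every tumor, 7.51 log2 units. Its log2 ratios were 3.81, 3.43, 3.55 and 3.85 in adenocarcinomas 105, 131, 17 and 85 and -1.95 in tumor 470. In the mammary sarcomatoid tumors 323, 307 and 594 they were 2.31, 2.45 and 0.59, and in lung tumors 323 and 307 they were -2.90 and -3.66. The mammary sarcomatoid tumors lay above tumor 470 and below the other adenocarcinomas. The lung tumors lay below all adenocarcinomas, as 7.04% of all probes did, and below all mammary sarcomatoid tumors, as 16.9% did.

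Cldn8, a claudin of epithelia with low permeability (mm7 chr16:88610520-88610579), had log2 ratios of 4.86, 5.49, 5.51 and 4.86 in adenocarcinomas 105, 131, 17 and 85 and of 0.06 in tumor 470. The ratios were 5.36, 5.03 and 2.77 in mammary sarcomatoid tumors 323, 307 and 594. In lung tumors 323 and 307 they were 1.19 and -2.27. Mammary sarcomatoid tumors 323 and 307 lay within the range of the adenocarcinomas. The tumor channel was not well above background in tumor 470 or in either lung tumor, and no reference channel was well above background for this probe. The ratios of those tumors thus come from 2 signals near background and give neither a fold nor a limit. With the scanner files normalized by loess they were 0.26 in tumor 470 and 0.11 and -0.09 in lung tumors 323 and 307.

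Cldn4, a claudin that lowers sodium permeability (mm7 chr5:133916757-133916816), had log2 ratios of 3.35, 4.18, 4.94 and 3.57 in adenocarcinomas 105, 131, 17 and 85 and of 0.06 in tumor 470. The ratios were 2.78, 2.02 and 1.27 in mammary sarcomatoid tumors 323, 307 and 594 and 1.19 and 0.40 in lung tumors 323 and 307. The order of the group means was that of Cldn7, with a smaller step from the mammary to the lung sarcomatoid tumors. The tumor channel was again not well above background in the lung tumors and tumor 470. The reference channel was well above background on 2 of 10 arrays, so most of these ratios rest on a reference near background. With the scanner files normalized by loess they were 2.25, 2.11, 3.67 and 1.18 in adenocarcinomas 105, 131, 17 and 85.

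Cldn1, a claudin needed for epithelial barriers (mm7 chr16:26020464-26020523 and chr16:26018826-26018885), followed another order. Its probe A_51_P481958 had log2 ratios of 4.24, 5.11, 2.99 and 3.79 in adenocarcinomas 105, 131, 17 and 85 and of -0.10 in tumor 470. In mammary sarcomatoid tumors 323, 307 and 594 the ratios were 2.07, 0.05 and 0.05, and in lung tumors 323 and 307 they were 2.10 and 1.78. By these ratios the lung tumors were not the lowest, and 307 had a higher ratio in the lung than in the mammary gland, by 1.73 on this probe and by 1.52 on probe A_52_P48681. The normalized log2 tumor signal in the scanner files did not differ in the same way, with 6.59 in lung tumor 307 and 6.57 in mammary tumor 307 on the first probe and 6.78 and 6.45 on the second, and the reference channel was not well above background in any sarcomatoid tumor. On the second probe every sarcomatoid tumor lay between -0.08 and 1.44 and the adenocarcinomas other than 470 between 3.06 and 4.27. The tumor channel of both probes was well above background on all 10 arrays.

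Occludin, the 4-pass MARVEL-domain protein of the strands, was read by probe A_51_P486150 (mm7 chr13:97585859-97585918). Its log2 ratios were 4.11, 2.34, 3.34 and 2.92 in adenocarcinomas 105, 131, 17 and 85 and -1.17 in tumor 470. They were 3.03, 1.80 and 1.26 in mammary sarcomatoid tumors 323, 307 and 594, and -0.87 and -1.75 in lung tumors 323 and 307, where the tumor channel was not well above background. The mammary sarcomatoid range overlapped that of the adenocarcinomas, and the lung tumors lay below every mammary sarcomatoid tumor. The other Ocln probe, A_52_P608097 (mm7 chr13:97627594-97628787), was well above background on 1 of 10 arrays and stayed between -1.25 and 0.09, so the probes disagree and the second carries little signal.

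F11r (JAM-A, mm7 chr1:171433810-171433869) was the member in which the groups stayed apart with all tumors kept. Its log2 ratios were 1.72, 1.28, 0.83, 1.63 and 1.30 in adenocarcinomas 105, 131, 470, 17 and 85, so that here tumor 470 was the lowest of its group but still above every sarcomatoid tumor. They were 0.54, 0.61 and 0.30 in mammary sarcomatoid tumors 323, 307 and 594, and -1.48 and -0.62 in lung tumors 323 and 307. The 3 groups did not overlap, in the order adenocarcinoma, mammary sarcomatoid, lung sarcomatoid.

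The scaffold proteins split. Tjp3, the ZO protein with the most restricted, epithelial expression (mm7 chr10:81065802-81065861), had log2 ratios of 1.58, 2.02, 1.29 and 1.48 in adenocarcinomas 105, 131, 17 and 85 and of -2.18 in tumor 470. The ratios were -0.03, -0.78 and -0.06 in mammary sarcomatoid tumors 323, 307 and 594 and -2.004 and -1.40 in lung tumors 323 and 307. Tjp1, the ZO protein that many cell types make (mm7 chr7:61154784-61154843 and chr7:61171235-61171294), stayed near 0. Its probe A_51_P390739 ranged from -0.49 to 1.09 over all 10 tumors and its probe A_52_P60338 from -0.65 to -0.01, with all 3 groups overlapping on both.

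**Figure D1:**
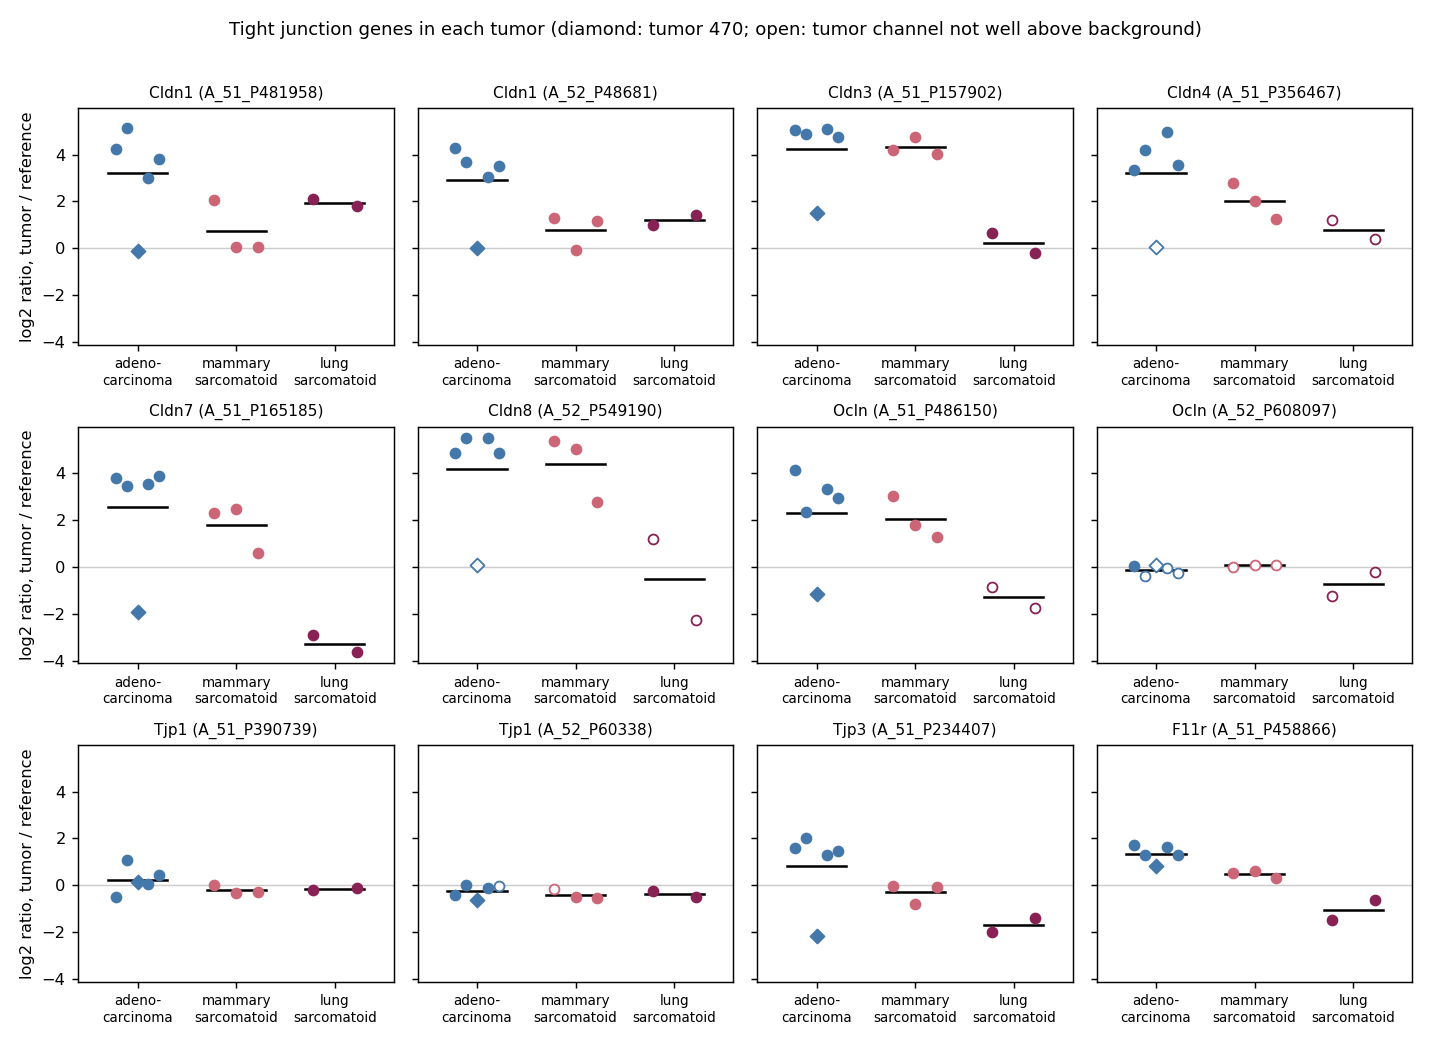
Each panel shows 1 member probe, with the log2 ratio of tumor over reference on the vertical axis and 1 point per tumor in 3 groups (5 adenocarcinomas, 3 mammary and 2 lung sarcomatoid tumors). Bars are group means, diamonds mark tumor 470 and open symbols a tumor channel not well above background. Cldn3, Cldn7, Cldn8 and Ocln (A_51_P486150) are high in the mammary sarcomatoid tumors and low in the lung tumors and tumor 470, while the Tjp1 probes stay near 0.

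The first comparison, all 5 sarcomatoid tumors against all 5 adenocarcinomas, asked which genes go with the metastatic group. All 12 member probes had a mean log2 ratio lower in the sarcomatoid tumors, with a median difference of -1.65 over the probes against -0.00 over all 40196 probes. None passed limma's test at a Benjamini-Hochberg adjusted p of 0.05, nor did any other probe (0 of 40196, percent called 0, against 9.23% at an unadjusted p under 0.05), and the members' adjusted p-values ran from 0.346 to 0.927. At an unadjusted p under 0.05, 4 of 12 member probes were lower, those of F11r, Tjp3 and both of Cldn1, where 4.25% of all probes were. F11r was lower by a log2 difference of -1.48 ± 0.40 (SE, n = 5 and 5, adjusted p = 0.346). It was the only member whose groups did not overlap, as did 0.468% of all probes in that direction, and its exact permutation p of 0.00794 (two-sided) is the smallest that 5 against 5 samples can give. That test counts the 5 sarcomatoid tumors as separate, and with 1 value per tumor number, 3 against 5, F11r differed by -1.41 ± 0.30 (limma adjusted p = 0.631). For the 12 member probes tested singly in this way the exact p-values of the others ran from 0.0397 (Cldn1, A_52_P48681) to 0.833.

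Tumor 470 lay within or below the sarcomatoid range for Cldn1, Cldn3, Cldn4, Cldn7, Cldn8, Ocln (A_51_P486150) and Tjp3. Without it, 4 of the 12 member probes passed the adjusted threshold where 1.54% of all probes did. Cldn1 then was lower in the sarcomatoid tumors by log2 differences of -2.82 ± 0.57 (A_51_P481958, adjusted p = 0.0401) and -2.67 ± 0.37 (A_52_P48681, adjusted p = 0.0171). Cldn4 was lower by -2.48 ± 0.49 (adjusted p = 0.0368) and Tjp3 by -2.45 ± 0.42 (adjusted p = 0.0246). F11r, with -1.61 ± 0.43, gave an adjusted p of 0.0962. With the scanner files normalized by loess as well as without tumor 470, 1 member probe passed, Tjp3 (adjusted p = 0.0314), where 1.53% of all probes did, and the calls of Cldn1 and Cldn4 were lost. Tumor 470 was set aside here with its values known, and the study's label for it is adenocarcinoma.

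The arrays were read in 3 scan batches (versions of the extraction protocol), and the difference was not the same within them. In scan batch 2, tumors 307 and 594 against 105 and 470, the differences were 1.11 for Cldn3, 0.59 for Cldn7 and 1.44 for Cldn8, and for Cldn1, Tjp3 and F11r they were -2.02 (A_51_P481958), -0.12 and -0.82. In scan batch 3, the lung tumors against 131, 17 and 85, those of Cldn3 and Cldn7 were -4.69 and -6.89, and those of Cldn1 (A_51_P481958), Tjp3 and F11r -2.02, -3.30 and -2.45. Each batch holds different kinds of sarcomatoid tumor, and tumor 470 is in scan batch 2. Cldn1 and F11r were lower in the sarcomatoid tumors in both batches. So were Cldn4, Tjp3 and Tjp1 (A_51_P390739), by -0.06, -0.12 and -0.12 in scan batch 2. All other member probes were higher in scan batch 2 and lower in scan batch 3. On A_51_P481958 the Cldn1 difference in scan batch 2 rests on tumor 105 (4.24), as tumor 470 (-0.10) lay below 307 and 594 (0.05 each).

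Splitting the sarcomatoid group by site, the mammary sarcomatoid tumors alone were set against the adenocarcinomas. No member probe and no other probe passed the adjusted threshold (0 of 40196, percent called 0, with 8.6% at an unadjusted p under 0.05). Of the 12 member probes, 9 were lower, and 3 had an unadjusted p under 0.05 where 3.76% of all probes were lower at that level. These were both Cldn1 probes, at -2.48 ± 0.99 (SE, n = 3 and 5) and -2.11 ± 0.82, and F11r at -0.87 ± 0.31, with adjusted p-values of 0.579, 0.579 and 0.556. F11r again did not overlap, as 1.93% of all probes did in that direction, with an exact permutation p of 0.0179, the smallest possible here.

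For the claudins that were low in the lung, the mammary difference was small or not settled. Cldn3 differed by 0.07 (95% confidence interval -1.57 to 1.71) and Cldn8 by 0.23 (-2.56 to 3.02), and the intervals leave room for changes of several-fold in either direction. Both signs turned without tumor 470, to -0.62 (adjusted p = 0.393) and -0.79 (adjusted p = 0.678). With the tumor channel alone, Cldn3 differed by -1.42. Without tumor 470, 3 of 12 member probes passed the threshold, where 0.522% of all probes did. They were the Cldn1 probes, with -3.31 ± 0.60 (adjusted p = 0.0482) and -2.84 ± 0.42 (adjusted p = 0.0378), and Tjp3, with -1.88 ± 0.33 (adjusted p = 0.0468). With loess on the scanner files as well, 0 of the 12 passed, where 0.408% of all probes did.

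The lung tumors had lower means than the adenocarcinomas for all 12 member probes. F11r fell by 2.40 ± 0.35 on the log2 scale against the adenocarcinomas (5.28-fold, SE, n = 2 and 5, limma adjusted p = 0.0390), and was the 1 member probe of 12 past the adjusted threshold, which 0.109% of all probes passed, 0.0622% of all probes as lower. At an unadjusted p under 0.05, 7 of 12 member probes were lower and none higher, where 5.23% of all probes were lower and 6.1% higher. Cldn3 differed by -4.03 ± 0.85 (adjusted p = 0.131), Cldn7 by -5.82 ± 1.36 (adjusted p = 0.159) and Tjp3 by -2.54 ± 0.93 (adjusted p = 0.332). For the 3 probes that were not well above background in the lung, the difference of mean signals in the tumor channel is given. Mean tumor signal was 6.09-fold higher in the adenocarcinomas for Cldn8, 4.50-fold for Ocln (A_51_P486150) and 4.42-fold for Cldn4. The log2 differences, lung minus adenocarcinoma, were -2.61 ± 0.87, -2.17 ± 0.81 and -2.14 ± 0.95 (SE). These are measured differences and not lower limits. Cldn8 and Cldn4 were above background in 4 of the 5 adenocarcinomas. In that order the limma adjusted p-values were 0.371, 0.423 and 0.514 with the tumor channel and 0.259, 0.267 and 0.406 with the ratios. The Ocln probe A_52_P608097, above background in 1 adenocarcinoma, gave 1.03-fold. The lung groups of Cldn3, Cldn7 and F11r lay wholly below the adenocarcinomas, as 7.04% of all probes did, with an exact permutation p of 0.0476 each, the smallest possible.

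The F11r call was close to the threshold. It was lost with the scanner files normalized by loess (adjusted p = 0.0549), with the log ratio of the extraction software (0.0598), with scan batch as a term (0.0565), and when any array other than tumor 470 was left out (0.0674 to 0.181), while the difference itself stayed between -1.97 and -2.84. Without tumor 470, 8 of 12 member probes passed, where 1.75% of all probes did. These were F11r at -2.53 ± 0.35 (adjusted p = 0.00604), Cldn3 at -4.72 ± 0.36 (0.000482), Cldn7 at -6.94 ± 0.52 (0.000482), Tjp3 at -3.29 ± 0.37 (0.00222) and Cldn1 (A_52_P48681) at -2.42 ± 0.48 (0.0335), together with Cldn8 (0.0130), Ocln (A_51_P486150, 0.00496) and Cldn4 (0.0164). In the lung tumors Cldn8, Ocln (A_51_P486150) and Cldn4 were not well above background, so their calls rest on ratios near it. The Tjp1 probes gave adjusted p-values of 0.748 and 0.827.

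Lung and mammary sarcomatoid tumors were also compared with each other. No member probe passed the adjusted threshold, and 0.0249% of all probes did. The exact permutation test cannot go below p = 0.1 with 2 against 3 samples. At an unadjusted p under 0.05, 5 of 12 member probes were lower in the lung, where 5.1% of all probes were. They were Cldn3 at -4.11 ± 0.93 (adjusted p = 0.212), Cldn7 at -5.06 ± 1.49 (0.308), F11r at -1.53 ± 0.38 (0.248), Cldn8 (0.343) and Ocln (A_51_P486150, 0.393). For Cldn8 and Ocln the mean signal of the tumor channel was 5.26-fold and 2.29-fold higher in the mammary tumors. The log2 differences, lung minus mammary, were -2.40 ± 0.95 and -1.20 ± 0.89 (SE) in that channel. That channel gave limma adjusted p-values of 0.378 and 0.638. Cldn4, by the same measure, was 1.94-fold higher in the mammary tumors, with a log2 difference of -0.95 ± 1.03 (adjusted p = 0.771 with the tumor channel and 0.736 with the ratios). The lung values of 8 probes lay wholly below the mammary ones, as did 16.9% of all probes. The ratios of Cldn1 differed by 1.22 ± 1.24 and 0.42 ± 1.03, but by 0.016 and 0.16 with the tumor channel alone and by -0.0020 and -0.62 with scan batch as a term. Leaving out tumor 470, which changes only the estimate of the spread, brought Cldn3 (adjusted p = 0.00941) and Cldn7 (0.0114) past the threshold, where 0.209% of all probes were.

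**Figure D2:**
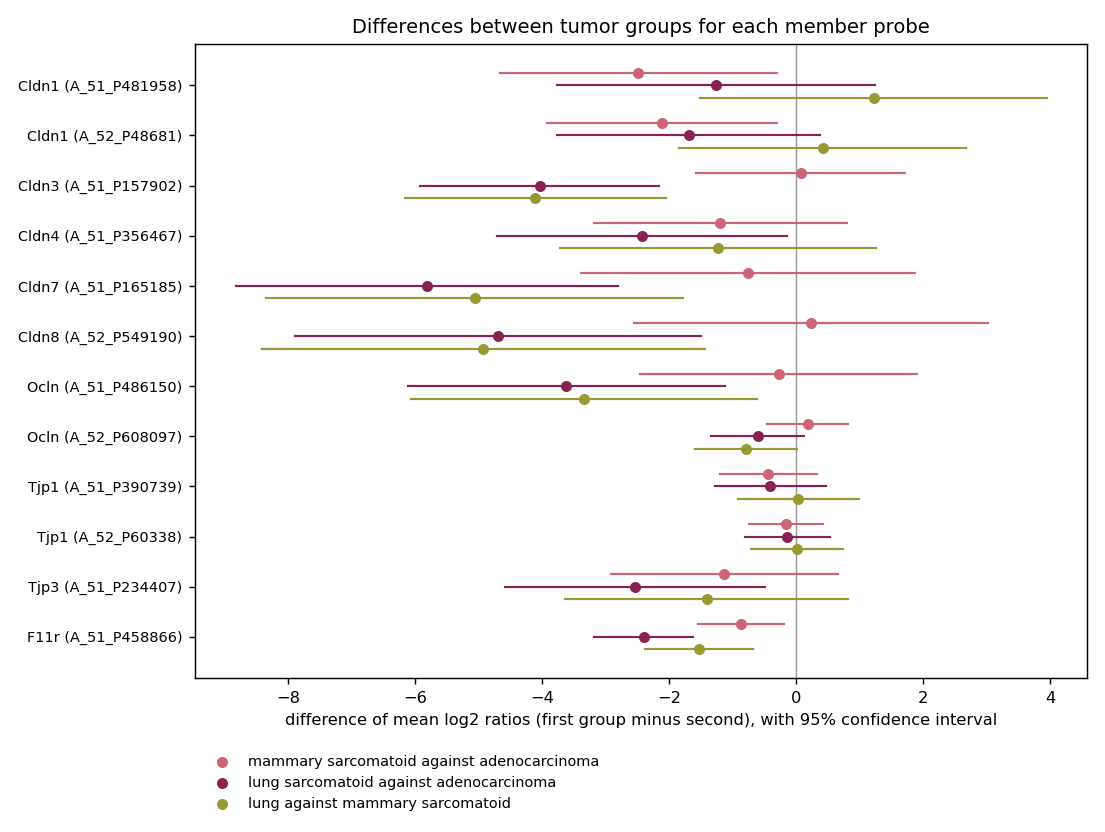
Differences of mean log2 ratios for each member probe in 3 comparisons, with 95% confidence intervals from limma (first group minus second, horizontal axis in log2 units). For Cldn3 the mammary difference of 0.07 lies near 0 and the lung differences of -4.03 and -4.11 lie far below it, while for Cldn1 the mammary difference of -2.48 is the lowest of the 3. Lung values of Cldn4, Cldn8 and both Ocln probes were not well above background.

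The lung tumors can be set against the mammary tumor of their own number. Of the 12 member probes, 9 had lower ratios in the lung in both numbers, where 30.7% of all probes did. Lung minus mammary was -3.57 in 323 and -4.95 in 307 for Cldn3, a ratio 11.8-fold and 30.8-fold lower. For Cldn7 it was -5.21 and -6.11, or 37.0-fold and 69.1-fold lower. F11r differed by -2.03 and -1.22 and Tjp3 by -1.98 and -0.62. Cldn1 (A_51_P481958) had ratios higher by 0.03 in 323 and 1.73 in 307, where its tumor signal was 6.88 in the lung and 7.11 in the mammary gland for 323 and 6.59 and 6.57 for 307. With tumor number as a block in the fit, Cldn3 differed by -4.26 and Cldn7 by -5.66, and no member passed the threshold.

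Site and scan batch run together in the sarcomatoid group. Both lung arrays were read in scan batch 3, and the mammary ones in scan batches 1 (323) and 2 (307 and 594), so a comparison within a batch could not be made. The adenocarcinomas 131, 17 and 85 were read in scan batch 3 as well and had Cldn3 ratios of 4.76 to 5.08. With scan batch as a term, the lung minus mammary difference of Cldn3 was -5.80 and that of Cldn7 -7.48 (adjusted p = 0.497 and 0.545). The batch term came from these adenocarcinomas against 105 and 470 of scan batch 2. Tumor 470 had the lower ratios there, 1.49 for Cldn3 and -1.95 for Cldn7, against 5.04 and 3.81 in 105. Mammary tumor 323, alone in scan batch 1, did not enter the differences. The batch-adjusted differences thus depend on the values of tumor 470.

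**Figure D3:**
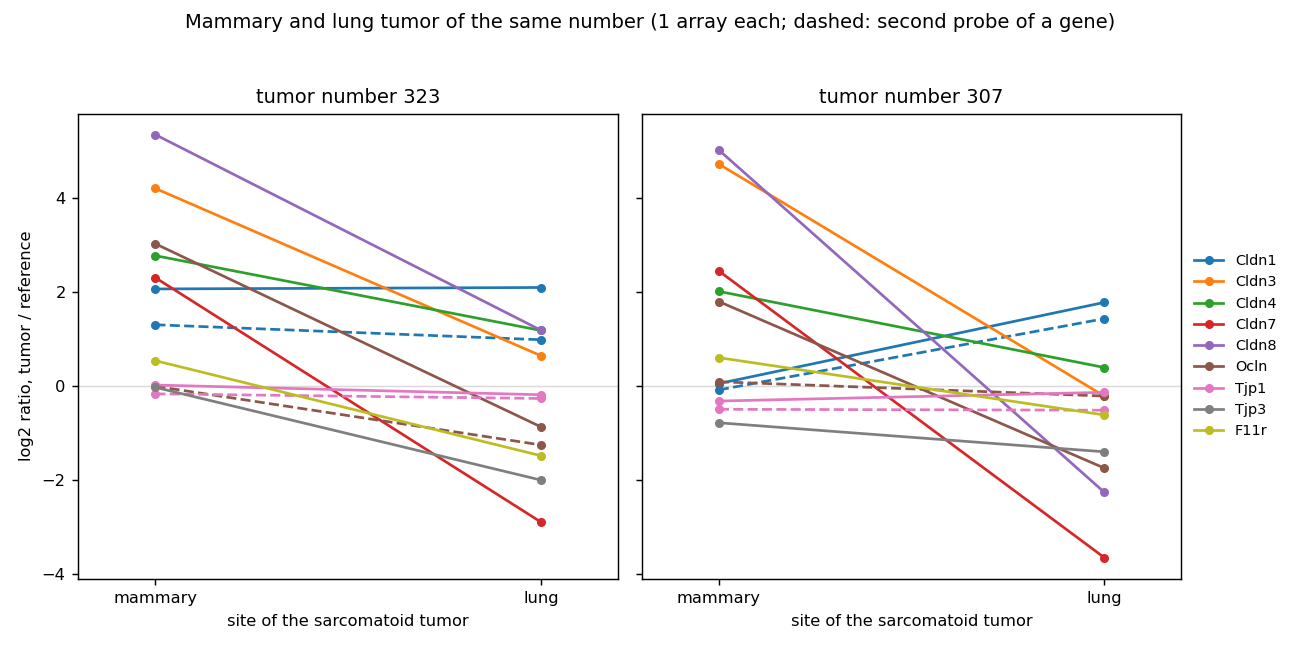
Log2 ratios (vertical axis) in the mammary and the lung tumor of number 323 (left) and 307 (right), 1 array each, with a line per probe coloured by gene and dashed for the second probe of a gene. The ratios of Cldn3, Cldn7, Cldn8 and Ocln (A_51_P486150) drop in both and Tjp1 is level, but Cldn8 and Ocln were not well above background in the lung tumors. The Cldn1 ratio is higher in the lung in 307, over a reference that was not well above background, with tumor signals of 6.57 in the mammary gland and 6.59 in the lung on probe A_51_P481958.

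The members varied together across the 10 tumors, except Tjp1 and in part Cldn1. Pearson's r between representative probes, each the brightest of its gene, was 0.98 for Cldn3 with Cldn7, 0.96 for Cldn7 with Ocln and 0.95 for Cldn3 with Cldn8, and 0.98, 0.96 and 0.94 without tumor 470. Cldn4 went most closely with Tjp3 (0.90). Cldn1 correlated with Tjp3 and Cldn4 at 0.78 and 0.75 and with Cldn3 at 0.39, and Tjp1 with Ocln at 0.10. These are descriptions over 10 arrays that share a reference, group structure and scan batches.

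Over 19277 other genes, those whose ratios ran closest to a member were also named. Kdf1, a regulator of epidermal differentiation, was closest to Cldn7 (r = 0.99). Cxadr, a tight junction adhesion protein that serves as a virus receptor, was closest to Ocln (0.98). The keratin Krt23 was closest to Cldn8 (0.98), Plet1 to Cldn3 (0.97), the receptor Erbb3 to Tjp3 (0.97), Plpp2 to Cldn4 (0.97), Elmod3 to Cldn1 (0.97), Tsg101 to Tjp1 (0.96) and Nkd2 to F11r (0.95). The mean of standardised Cldn3, Cldn4 and Cldn7 ran closest to Mapk13, Arhgef16, Ell3, Cited4 and Dennd11 (r = 0.99 each). All 5 of these were also the closest without tumor 470, and 2 of them with the scanner files normalized by loess.

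Since Snail and ZEB factors, which repress epithelial genes in EMT, bind E-boxes, the promoters of the members were searched for CAGGTG and its reverse complement CACCTG. The windows come from RefSeq (GRCm38.p6) and run from 250 bases before to 50 after a start site, and 8 of the 9 members matched, with 11 windows. At least 1 match was found for 6 of these 8 genes, in 8 of the 11 windows, and in 20.2% of all 32851 windows and 22.6% of all 27025 genes in that table. The matches nearest to a start site are shown for the genes that have one, 30 bases each on the gene's strand from 5′ to 3′, with the E-box in capitals.
Cldn3: caaagccacaggCAGGTGcaggggcagtct
Cldn4: cctttcttgttgCAGGTGcaggcaggaaag
Cldn7: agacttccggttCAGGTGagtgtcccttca
Ocln: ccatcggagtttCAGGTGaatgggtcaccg
Tjp3: cacaaaccctccCACCTGcaggccggcctc
F11r: agttcggggttgCACCTGcgtacggtgagt

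These lie at chr5:134986233-134986262 (plus strand) for Cldn3, chr5:134946906-134946935 (minus) for Cldn4, chr11:69965352-69965381 (plus) for Cldn7, chr13:100552694-100552723 (minus) for Ocln, chr10:81291267-81291296 (minus) for Tjp3 and chr1:171437427-171437456 (plus) for F11r. The first base of the E-box is at 31, 11, -57, 7, -17 and -122 from the start site in that order, where the start base counts as 0. The Ocln match lies in the windows of both of its start sites. Cldn4, Cldn7 and Ocln each have another E-box in the same window or a neighbouring one, and Tjp3 has one at its other start site. No CAGGTG or CACCTG stood in the windows of Cldn1 and Tjp1. The search was chosen with the values known, and a match is a description of letters, not a site in use.

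Of 16 other claudins with a probe, 2 were lower and 1 higher in the sarcomatoid tumors at an unadjusted p under 0.05 (4.25% and 4.98% of all probes), none passed the adjusted threshold, and the median difference was -0.02. Cldn2, the pore-forming claudin of leaky epithelia, had a difference of -1.88 ± 0.84 and Cldn6, an embryonic claudin, of -0.96 ± 0.44 (adjusted p = 0.528 and 0.541). Cldn2 was well above background in 4 of 5 adenocarcinomas and 2 of 5 sarcomatoid tumors, and Cldn6 in 2 and 3. Cldn22 had a difference of 1.14 ± 0.39 (adjusted p = 0.415), with log2 ratios of 1.58 and 1.45 in lung tumors 323 and 307 and of at most 0.35 in every other tumor. It was well above background in 2 of 5 adenocarcinomas and 4 of 5 sarcomatoid tumors, so the differences of these 3 claudins rest in part on values near background. Cldn5, the claudin of endothelium and chosen here after its values were seen, had log2 ratios between 3.17 and 5.53 in all 10 tumors and a difference of -0.40 ± 0.48 (adjusted p = 0.851).

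Among 29 measured scaffolds and partners of the junction, 9 were lower and 2 higher at an unadjusted p under 0.05 (4.25% and 4.98% of all probes). The median difference was -0.52, and none passed the adjusted threshold. Lsr, the receptor that marks tricellular junctions, differed by -2.62 ± 0.89, Pard6b, a polarity protein, by -2.55 ± 0.85 and Marveld2 (tricellulin) by -2.07 ± 0.74 (adjusted p = 0.413, 0.406 and 0.437). In the other direction stood Jam3 (JAM-C), a relative of F11r made by endothelial and mesenchymal cells. Its log2 ratios were 1.998, 1.85 and 1.85 in mammary sarcomatoid tumors 323, 307 and 594, 2.04 and 1.87 in lung tumors 323 and 307, and 1.55 in tumor 470. In adenocarcinomas 105, 131, 17 and 85 they were -0.44, -1.84, -1.98 and -1.58. All sarcomatoid tumors were above all adenocarcinomas, as in 0.866% of all probes, and the difference was 2.78 ± 0.58 (adjusted p = 0.330). Its other probe, above background on 4 of 10 arrays, differed by 0.40. Rab13, a GTPase of junction traffic, differed by 0.87 ± 0.26 (adjusted p = 0.381), and by -0.65 on another probe that was above background on 2 arrays.

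Without tumor 470, 5 of these 29 genes passed the threshold over all probes, where 1.54% of all probes did. Jam3 was higher at 3.38 ± 0.33 (adjusted p = 0.00672), and Lsr, Pard6b, Llgl2 and Cgn (cingulin) were lower, with the values -3.48 ± 0.59, -3.39 ± 0.54, -2.71 ± 0.33 and -2.18 ± 0.32. In the lung tumors against the adenocarcinomas, again without tumor 470, 9 passed as lower and 1 as higher, where 1.75% of all probes passed. Cxadr differed by -5.24 ± 0.84, Lsr by -4.84 ± 0.43 and Marveld2 by -4.10 ± 0.42 (adjusted p = 0.0131, 0.000642 and 0.00121). Crb3, an apical polarity protein, and Marveld3, a relative of occludin, both named after their values were seen, passed as well (adjusted p = 0.000642 and 0.00118), but neither was well above background in the lung tumors, so no fold is given. Between lung and mammary sarcomatoid tumors, with all tumors kept, Jam3 differed by 0.06 ± 0.87 (95% confidence interval -1.86 to 1.97) and F11r by -1.53.

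**Figure D4:**
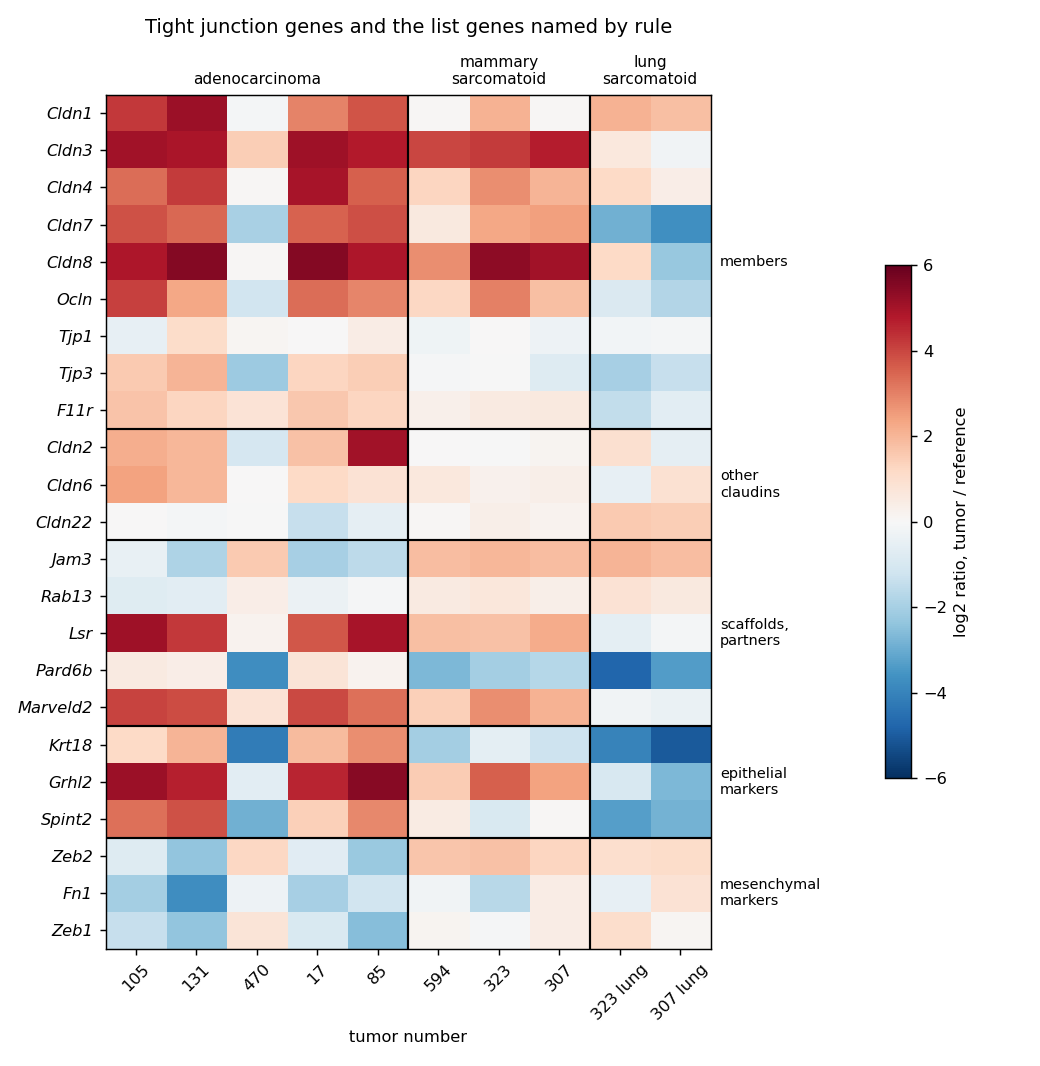
Log2 ratios of tumor over reference (colour, from -6 to 6) of the 9 members by their brightest probe and of the genes named by rule from 4 other lists, with tumors in columns grouped as adenocarcinoma, mammary and lung sarcomatoid. The member block is red in adenocarcinomas 105, 131, 17 and 85 and pale or blue in tumor 470 and the lung tumors, apart from Tjp1, and Jam3 runs the opposite way, from -1.98 in tumor 17 to 2.04 in lung tumor 323.

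The mean of the tight junction genes ran in the same order over the tumor groups as that of epithelial markers. Not every member did so, as Tjp1 stayed level and the Cldn1 ratios were not lowest in the lung tumors. The mean log2 ratio of the 9 members was 2.998 to 3.31 in adenocarcinomas 105, 131, 17 and 85, -0.31 in tumor 470, 1.10 to 2.26 in the mammary sarcomatoid tumors and -0.87 to -0.26 in the lung tumors. The mean of 16 other epithelial markers was 2.71 to 2.99 in those adenocarcinomas, -1.17 in tumor 470, 0.66 to 1.16 in the mammary sarcomatoid tumors and -1.89 to -1.59 in the lung tumors. All 16 had lower means in the sarcomatoid tumors, 8 at an unadjusted p under 0.05 where 4.25% of all probes were lower. None passed the adjusted threshold. Krt18, a luminal keratin, differed by -3.32 ± 1.26, Grhl2, an activator of epithelial genes, by -3.07 ± 1.34 and the protease inhibitor Spint2 by -3.02 ± 1.19. In the mammary sarcomatoid tumors alone 15 of the 16 were lower and 1 higher, with 0 at an unadjusted p under 0.05 (3.76% of all probes lower). In the lung tumors all 16 were lower, 15 at that level (5.23% of all probes), and 1 passed the adjusted threshold (0.0622%). Cdh1 (E-cadherin) was 6.49, 4.44 and 4.38 in mammary sarcomatoid tumors 323, 307 and 594 and 2.20 and 1.17 in the lung tumors. It was 4.30 to 6.18 in adenocarcinomas 105, 131, 17 and 85 and 2.61 in tumor 470. Of the 16 markers, 12 and 10 were well above background in lung tumors 323 and 307 and 14 in tumor 470. Whether the lower tight junction values come with fewer epithelial cells was not tested.

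All 14 mesenchymal markers had higher means in the sarcomatoid tumors, 6 at an unadjusted p under 0.05 where 4.98% of all probes were higher, and none passed the adjusted threshold. Zeb2, a repressor of epithelial genes, differed by 2.32 ± 0.58, the matrix protein Fn1 by 1.63 ± 0.62 and Zeb1 by 1.62 ± 0.55. The mean of the list was 0.74 in tumor 470 and -2.40 to -0.65 in the other adenocarcinomas, and -0.91 and 1.25 in the lung tumors.

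Normal lung tissue in the lung samples would bring its own junction genes. The mean of 12 lung epithelium markers was 0.08 to 0.32 in the lung tumors, 0.12 to 0.69 in the mammary sarcomatoid tumors and 0.07 to 1.07 in the adenocarcinomas. The list includes Aqp5, whose ratios were -1.04 and -1.78 in lung tumors 323 and 307 and 2.72 and 2.73 in the mammary tumors of those numbers. In adenocarcinomas 105, 131, 17 and 85 they were 4.08 to 5.89. As Aqp5 lowers the mean in the lung tumors, that mean cannot show whether the other lung markers are higher there. Sftpa1 was not well above background in any tumor, and Sftpc, the surfactant protein of alveolar cells, was well above background in lung tumor 307 (2.48) and not in lung tumor 323, but also in mammary tumors 594, 105 and 470 (0.05, 1.98 and 0.06). Cldn18, a claudin of alveolar epithelium and chosen here after its values were seen, was above background in lung tumor 307 (2.88) and not in lung tumor 323, and also in mammary tumors 307, 594 and 470 (0.32, 0.23 and -1.07). Their part in the junction values of the lung tumors was not tested. On this list 2 of 12 markers had an unadjusted p under 0.05, both lower in the sarcomatoid tumors, where 4.25% of all probes were. They were Aqp5 at -3.24 ± 1.11 and Abca3 at -0.77 ± 0.33. Other Abca3 probes differed by 0.35, 0.10 and -0.54, none at an unadjusted p under 0.05. Those probes were well above background on 3, 0 and 10 arrays. Endothelial markers, 12 genes, had a mean of 2.16 to 3.54 in the adenocarcinomas, 2.51 to 3.63 in the mammary sarcomatoid tumors and 1.85 to 2.97 in the lung tumors. None passed an unadjusted p of 0.05 between the 5 sarcomatoid tumors and the 5 adenocarcinomas. In the lung tumors against the adenocarcinomas 1 was lower at that level, where 5.23% of all probes were. The mean of 8 fibroblast and adipocyte markers ranged from -0.43 to 3.24 in the adenocarcinomas and from 0.57 to 2.68 in the sarcomatoid tumors.

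**Figure D5:**
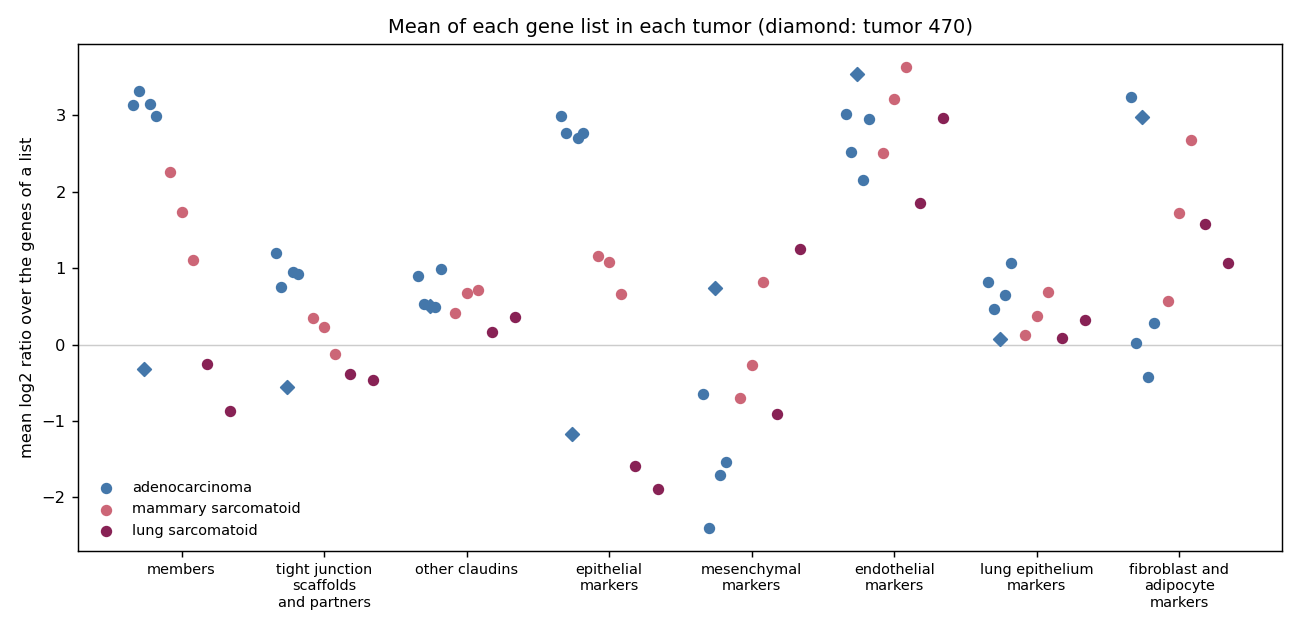
Mean log2 ratio over the genes of each list (vertical axis) in each tumor, with 1 point per tumor coloured by group and a diamond for tumor 470. The members and the epithelial markers are highest in 4 adenocarcinomas (members 2.998 to 3.31), lower in the mammary sarcomatoid tumors (1.10 to 2.26) and lowest in the lung tumors and tumor 470, while the endothelial means of the 3 groups overlap.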

How the data were processed

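Total RNA of 10 mouse mammary or lung tumors was hybridised to 2-colour Agilent arrays, 1 array per tumor. The authors deposited a table of log2 ratios normalized with limma (background correction and version not given in the sources used here) and scanner files with spot intensity per channel and a log10 ratio, per the file headers from Agilent Feature Extraction 10.7.3.1, 11.0.1.1 and 11.5.1.1, taken here as 3 scan batches. The unit of the table was checked against the scanner files, but its background correction and centring stay unknown (column medians from -0.05 to 0.07).

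Rows of 1 probe were averaged, and 40196 non-control probes were tested with limma 3.58.1 in R 4.3.3 (lmFit, eBayes), with group as the only term, or 3 groups (mammary sarcomatoid, lung sarcomatoid, adenocarcinoma) for comparisons by site, and Benjamini-Hochberg adjustment over all probes at 0.05. Single member probes also had an exact two-sided permutation test over samples. Comparisons with adenocarcinoma share the same control tumors. Where a probe was not well above background on any array of a group, its fold is the difference of mean tumor-channel signals after loess and Aquantile. Such a fold is open to dye bias because no dyes were swapped. The number of arrays limits the precision. The code was tested on simulated data.

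Alternatives were the scanner files with normexp (offset 50) and loess or median centring, the extraction software's log ratio, median centring of the table, a filter on probes well above background on 5 arrays, scan batch, slide or tumor number in the fit, and leaving out each array. Replicate numbers are names only, and pairing comes from tumor numbers 323 and 307, since each lung tumor derives from the mammary tumor of its number. Outlier spots (0.228% to 0.576% per array) were left out of scanner values.

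All member probes were named. From each other list, up to 3 genes per direction with the largest difference at an unadjusted p under 0.05 between sarcomatoid tumors and adenocarcinomas were named, by the brightest probe of a gene, as were the genes most similar to a member and marker genes beside a result. The members and lists were chosen with earlier results of these data known. Probe positions are those of the array design (mm7), with no annotation of that build used here.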

Additional observations from a re-analysis of the deposited data

Results flagged for a closer look

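Within groups of 5, a value was looked at again where its gap to the nearest other sample exceeded 0.71 of the group's range, the 95% critical value of Dixon's test. Of 40 groups searched 9 were found, where chance gives about 1 in 20, or 2. In 8 of them the sample was tumor 470 among the adenocarcinomas. Its log2 ratios lay far below the others for Cldn1 (A_52_P48681, -0.0063), Cldn3 (1.49), Cldn7 (-1.95), Cldn8 (0.057) and Tjp3 (-2.18), and so did its means over the 9 members (-0.31), the 29 scaffolds and partners (-0.56) and the 16 epithelial markers (-1.17). The other was lung tumor 323 among the sarcomatoid tumors for Ocln probe A_52_P608097 (-1.25), where that probe was not well above background.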

How the results depend on the processing

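Leaving out 1 array at a time, the count of member probes past the threshold ranged from 0 to 4 for sarcomatoid tumors against adenocarcinomas, 0 to 3 for the mammary ones, 0 to 8 for the lung ones and 0 to 2 for lung against mammary, and that of other tight junction genes from 0 to 5, 0 to 5, 0 to 11 and 0 to 2. The highest counts were those without tumor 470. With loess on the scanner files and without tumor 470, a pair of choices made after seeing the data, the members counted 1, 0, 5 and 1 and the other genes 9, 7, 9 and 0, where 1.53%, 0.408%, 1.11% and 0.0146% of all probes passed. For lung tumors against adenocarcinomas the member count was 0 with loess, with the extraction software's log ratio and with scan batch as a term, where 1 other gene passed. Of the 5 most similar genes, 2 were shared with loess.

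Some differences that did not pass the threshold changed sign. For mammary tumors against adenocarcinomas, Cldn3 was -0.22 with loess, -0.46 with median centring of the scanner files, -1.42 with the tumor channel alone and -0.95 with loess without tumor 470, and Cldn8 was -0.18, -0.27, -0.21 and -0.68 in that order. Cldn4 was 0.082 and Ocln (A_52_P608097) -0.33 with the extraction software's log ratio, and the latter -0.075 with the tumor channel alone. With scan batch as a term Cldn7 was 0.59, Ocln (A_51_P486150) 0.060 and Tjp1 (A_52_P60338) 0.016. With median centring Ocln (A_52_P608097) was 0.072 for all sarcomatoid tumors and 0.0023 for the lung ones, and Tjp1 (A_52_P60338) was 0.037 for the lung ones and 0.18 with the tumor channel alone. For lung against mammary, scan batch as a term gave Cldn1 -0.0020 and -0.62 and Tjp1 -0.56 and -0.35, slide as a random block gave Tjp1 -0.013 and -0.016, and the tumor channel alone gave Ocln (A_52_P608097) 0.034 and Tjp1 (A_51_P390739) -0.063. With tumor number as a replicate block, the paired fit, Tjp1 was -0.011 and -0.059, and 0 member probes passed. Over left-out arrays, the mammary differences ranged from -0.62 to 0.28 for Cldn3, -0.79 to 1.04 for Cldn8 and -1.15 to 0.17 for Ocln (A_51_P486150), the sarcomatoid one from -0.22 to 0.12 for Ocln (A_52_P608097), and the lung against mammary ones from -0.021 to 0.67 for Cldn1 (A_52_P48681), -0.031 to 0.14 for Tjp1 (A_51_P390739) and -0.11 to 0.14 for Tjp1 (A_52_P60338). The cause of these changes was not tested.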
